A study of Mus musculus with 12 samples.

Results

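The genes described here are the stress-response transcription factor NRF2, its inhibitor KEAP1 and 8 antioxidant enzymes: Nfe2l2, Keap1, Gclc, Gclm, Txnrd1, Srxn1, Nqo1, Hmox1, Sod2 and Cat. They were found as the gene probes whose name in the scanner output equals one of these symbols, which gave 10 of the 30038 gene names and 14 of the 41174 gene probes on the array. Each of the 10 genes had at least 1 probe, and Nfe2l2, Gclm and Srxn1 had more than 1. RNA came from quadriceps, the large thigh muscle, of 12 male C57BL/6J mice aged 13 weeks. In the exercised group (n = 6) the mice ran on a motorised treadmill regularly for 4 weeks and the muscle was removed 3 hours after their last bout, whereas the sedentary group (n = 6) did not train. Each array was hybridised with Cy3-labelled RNA of 1 mouse, and the titles number the mice within sets called 1 and 2 whose meaning is not stated. The labels give no clock time of sampling, and with no trained mice sampled at rest the design does not separate the last bout from the 4 weeks.

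NRF2, encoded by Nfe2l2, is a basic leucine zipper protein that pairs with a small MAF protein on antioxidant response elements and switches on genes for glutathione synthesis, thioredoxin recycling, quinone reduction and heme breakdown. KEAP1 holds NRF2 in the cytoplasm and hands it to a CUL3 ubiquitin ligase, and oxidants or electrophiles that modify KEAP1 cysteines let newly made NRF2 reach the nucleus. Contracting muscle makes superoxide and hydrogen peroxide, and NRF2 is regulated mainly as a protein, so the transcript of Nfe2l2 measures only 1 layer of the pathway.

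The promoter letters of the genes are shown because the antioxidant response element is the DNA that ties this family together. RefSeq promoters (build GRCm38.p6) were at hand for Nfe2l2, Keap1, Gclm, Txnrd1, Srxn1, Nqo1, Sod2 and Cat, of which Txnrd1 has 3 entries. The 250 bases before each start were searched on both strands for TGACNNNGC, the core of the element, for its variant TGAGNNNGC, and for TGAGTCA, the AP-1 letters. TGACNNNGC stood in 10.2% of the 32851 promoter entries of the genome, TGAGNNNGC in 14.4%, TGAGTCA in 4.46%, and at least 1 of the 3 in 26%. TGAGTCA followed by GC is also a TGAGNNNGC, so these motifs can overlap. At least 1 was found in 4 of the 8 genes (Nfe2l2, Gclm, 1 of the 3 Txnrd1 entries, and Srxn1), and none in the windows of Keap1, Nqo1, Sod2 and Cat. The 8 genes have 10 promoter entries, and each of the 4 matched in 1 entry, whereas the shares above are per entry. With so few entries the count cannot be read as more or less than the share over all promoters. A match is a description of these letters only. Bases outside the 250 were not searched, so the absence of a match does not mean that a gene lacks the element. Capitals in the sequences below mark the matches, and each sequence runs in the direction of its gene. The Nfe2l2 stretch is chr2:75704864-75704913 on the minus strand, from base 250 to base 201 before the start, and holds TGACTCCGC.
Nfe2l2: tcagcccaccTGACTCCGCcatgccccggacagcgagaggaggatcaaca
The Srxn1 stretch is chr2:152105354-152105493 on the plus strand, from base 170 to base 31 before the start. It holds GCCGACTCA, which reads as TGAGNNNGC on the opposite strand, then TGAGTCA, and nearest the start TGAGTCAGC, where both motifs overlap.
Srxn1: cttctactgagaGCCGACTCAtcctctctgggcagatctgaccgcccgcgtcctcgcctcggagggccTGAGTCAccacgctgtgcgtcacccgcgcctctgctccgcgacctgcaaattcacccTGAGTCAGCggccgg
The Gclm stretch is chr3:122245397-122245446 and the Txnrd1 stretch chr10:82859086-82859135, both on the plus strand, and both carry TGACNNNGC on the opposite strand.
Gclm: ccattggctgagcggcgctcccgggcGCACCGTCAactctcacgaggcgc
Txnrd1: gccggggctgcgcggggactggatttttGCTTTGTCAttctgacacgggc

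Levels are given as log2 of the processed signal minus the 75th percentile of that array, so a level of 0 equals that percentile, and levels of different probes are not set against each other. All 14 probes were well above background on 12 of 12 arrays, none was saturated and none carried an outlier mark. Arrays held 22420 to 24863 probes well above background in exercised mice and 21728 to 25246 in sedentary mice, with a 75th percentile of 179 to 230 against 167 to 237 intensity units, and correlated with each other at 0.978 to 0.993 across genes, which are not independent replicates. Muscle fibre markers (Acta1, Ckm, Tnnt3, Myh4, Myh1 and Mb) had a summed level of 5535 to 6796 times the 75th percentile in exercised and 6284 to 7134 times in sedentary mice, and none of the 6 passed the test. Groups were spread unevenly over 3 slides: slide 1 carried 1 exercised mouse and 3 sedentary mice, slide 2 the reverse, and slide 3 had 2 of each.

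Exercised and sedentary muscle differed in 1 of the 10 genes. Nfe2l2 rose 1.46-fold in exercised muscle, and the other 9 genes did not pass the test, which required a Benjamini-Hochberg adjusted p below 0.05 in limma over all genes. Across the array 3.63% of the 16551 genes and unnamed probes passed in either direction, 1.79% as higher and 1.84% as lower, so with 10 genes a count of 1 cannot be read as more or less than that background. Differences lay above 0 in 5 of the 10 genes and below 0 in the other 5, with a median of 0.01 on the log2 scale, beside a median of -0.03 over all genes tested. Without the adjustment, 2 of the 10 (Nfe2l2 and Srxn1) had a p below 0.05 in limma, beside 16.2% of all genes. A two-sided exact permutation test of Srxn1 alone, which took no account of slide, gave p = 0.0758. In whole muscle, fewer cells of a type and less RNA per cell cannot be told apart.

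**Figure D1:**
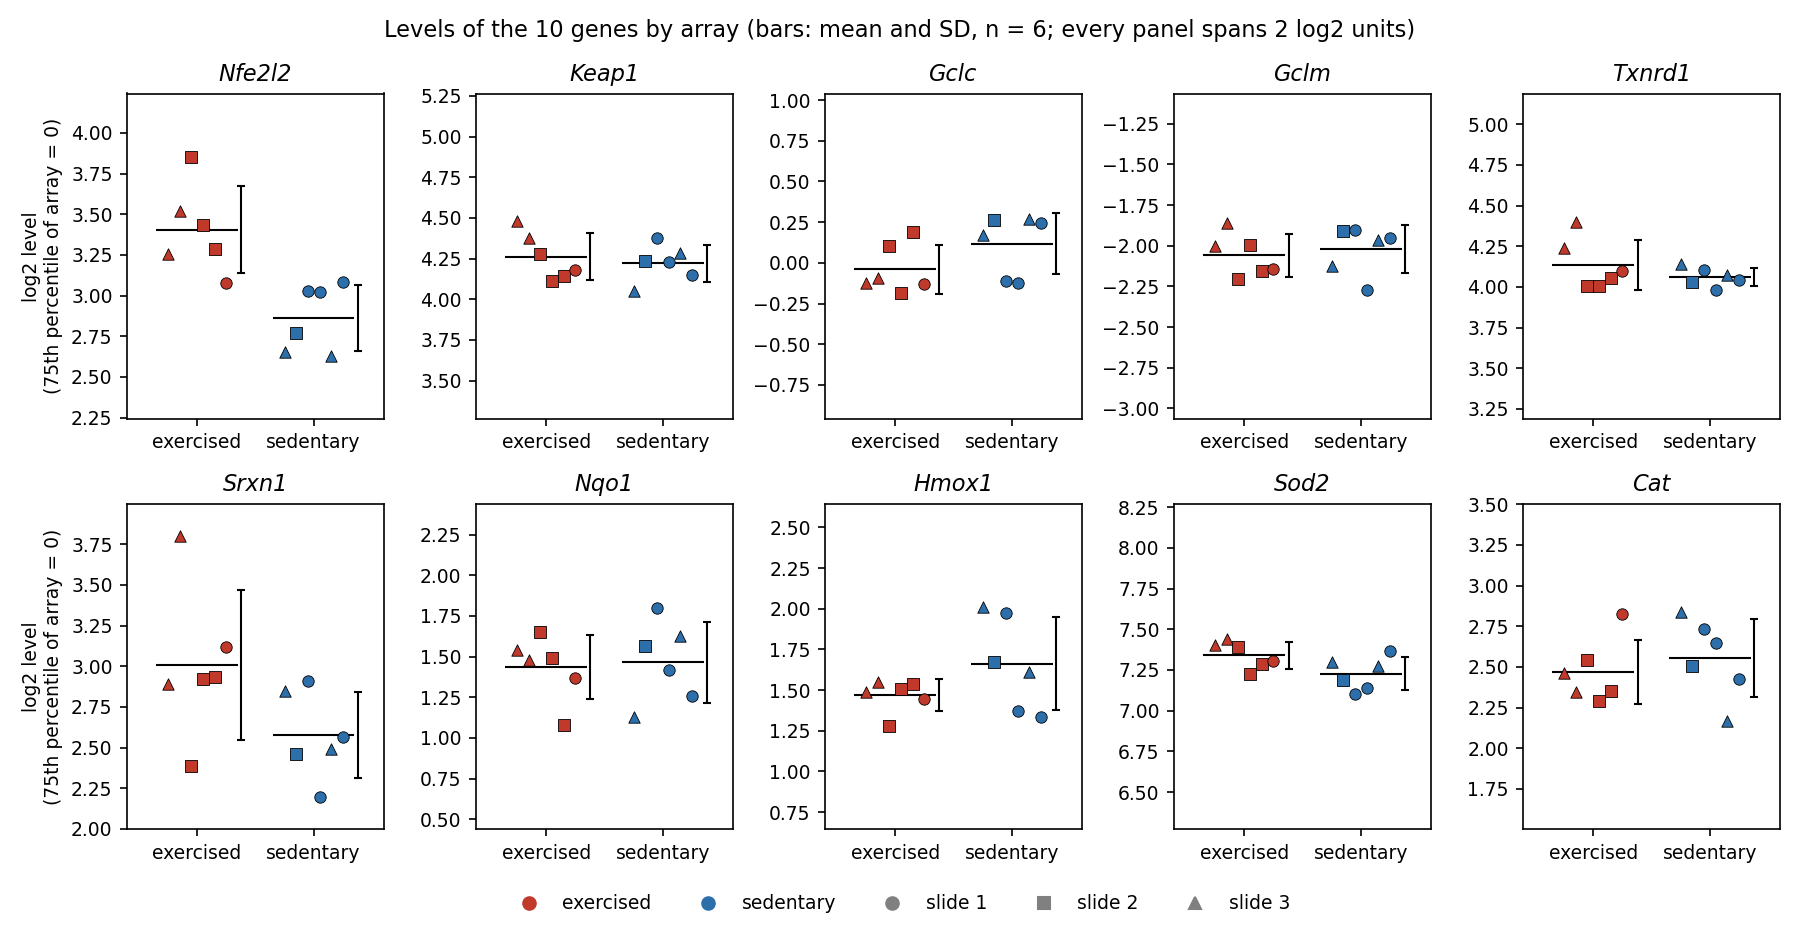
Level of each gene's brightest probe in 6 exercised (left, red) and 6 sedentary (right, blue) mice, in log2 units relative to the array's 75th percentile, 1 point per mouse, with the marker shape giving the slide. Horizontal bars are means and vertical bars SD (n = 6 each). Nfe2l2 has 5 of 6 exercised mice above every sedentary mouse, and all 10 genes overlap between groups.

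Nfe2l2 stood at 3.08 in the lowest, 3.36 in the median and 3.85 in the highest exercised mouse, against 2.63, 2.90 and 3.08 in sedentary mice (probe A_51_P411271, mm9 chr2:75513771-75513830, minus strand). In 5 of 6 exercised mice the level was above that of every sedentary mouse. The lowest exercised mouse lay just under the highest sedentary one, both on slide 1, so the groups overlapped at that single point. The mean was 3.41 ± 0.27 in exercised and 2.86 ± 0.20 in sedentary muscle (SD, n = 6 each), a log2 difference of 0.54 (95% interval 0.26 to 0.83, SE 0.131) or 1.46-fold (1.20 to 1.77). The adjusted p was 0.0398 in limma, and a two-sided exact permutation test of this gene alone gave p = 0.00433, where the smallest possible is 0.00216. That permutation took no account of slide, over which the groups were spread unevenly. With slide as a block the difference was again 0.54, but the adjusted p was 0.0967 and the gene did not pass. With that block 2.08% of all genes did. The call also lay near the threshold. It held in 3 of the 12 fits that each left out 1 mouse, whose adjusted p in limma ran from 0.0280 to 0.0916. The difference in these fits was 0.45 to 0.61. As each fit also has fewer mice, a lost call does not single out the mouse left out.

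A second Nfe2l2 probe, A_52_P396436 (chr2:75513917-75513976), is annotated to the same transcript at another position. Its levels were 2.42, 2.60 and 3.12 (lowest, median, highest) in exercised mice and 1.86, 2.09 and 2.43 in sedentary mice, again with 5 of 6 exercised mice above every sedentary mouse. Its difference was 0.55 (0.26 to 0.84), with an adjusted p of 0.0450 in the limma fit over all probes, in which 3.31% of probes passed. Both probes read the same RNA extracts and are not independent replicates.

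By slide, the difference of the first Nfe2l2 probe was 0.03 on slide 1, 0.76 on slide 2 and 0.75 on slide 3. Sedentary mice on slide 1 had levels from 3.02 to 3.08, whereas sedentary mice on slides 2 and 3 had 2.77 and from 2.63 to 2.65. The exercised mouse on slide 1, at 3.08, was the lowest of its group. The second probe differed by 0.28, 0.78 and 0.71 on slides 1, 2 and 3, and on each slide every exercised mouse lay above every sedentary one. Slide 1 holds 1 exercised mouse and slide 2 holds 1 sedentary mouse, so each of these differences lacks a spread in 1 group. Only slide 3 has 2 mice of each group.

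**Figure D2:**
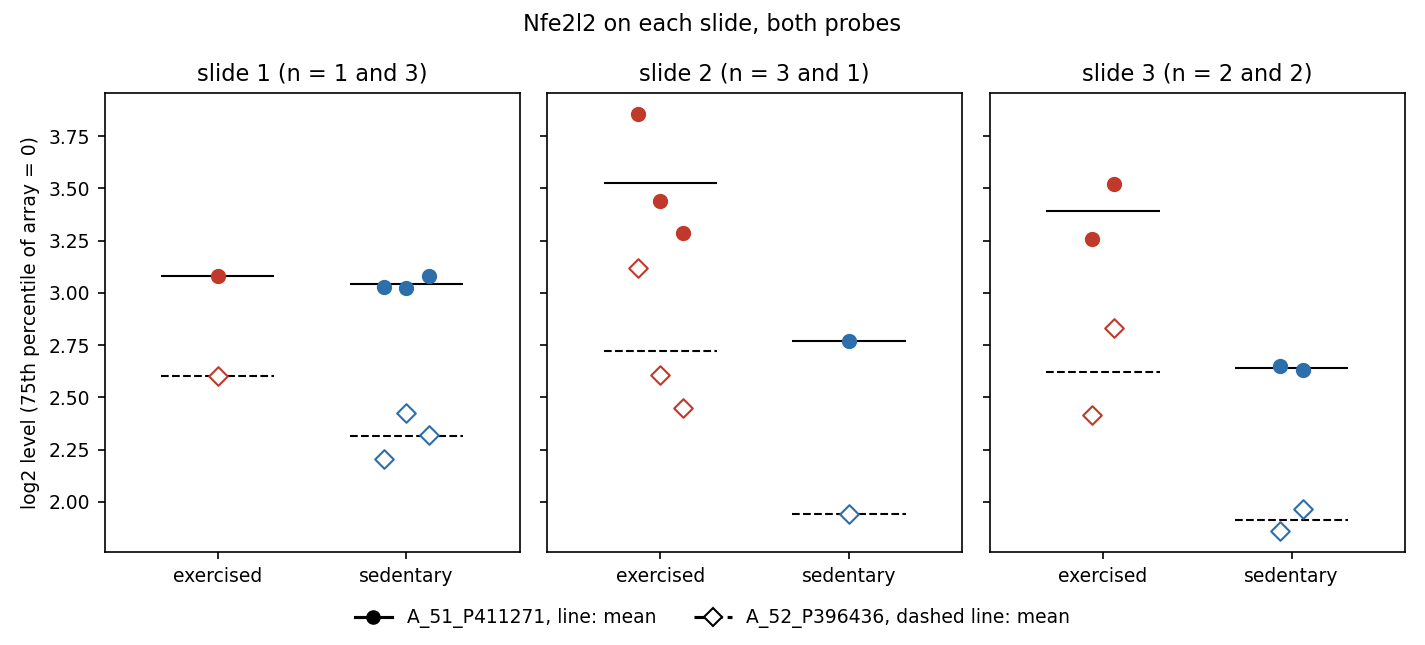
Levels of both Nfe2l2 probes (log2, relative to the array's 75th percentile) on each of the 3 slides, exercised mice left and sedentary mice right, 1 point per mouse with the mean as a line. For the first probe the group means differ by 0.76 and 0.75 on slides 2 and 3. On slide 1 they differ by 0.03, and there the exercised mouse lies inside the sedentary range.

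Markers of tendon cells and the brown adipocyte marker Cidea also stood higher in exercised muscle on average, without passing the test. Of the tendon cell list (Tnmd, Scx, Comp, Fmod and Kera), 5 of 5 had a difference above 0, with a median of 0.92, though none passed, and their summed level on the linear scale was 28.0 to 76.1 in exercised and 12.5 to 35.3 in sedentary muscle, in units of the array's 75th percentile. Of the brown adipocyte list, Ucp1, Cidea and Cox7a1 were measured and Elovl3 was above background on 0 arrays. The Ucp1 probe was well above background in 5 of 6 exercised and 2 of 6 sedentary mice, with levels of -6.45 to 3.25 in exercised and -7.15 to -0.55 in sedentary mice, so its difference rests on values at background and is not given. Those of Cidea and Cox7a1 were 1.79 and 0.01, with none of the 3 genes passing, and the summed level of the list was 437 to 630 in exercised and 459 to 563 in sedentary muscle, mostly Cox7a1, which muscle fibres also express. None of the measured markers of 4 other cell types passed. Differences were above 0 in 3 of 3 erythrocyte markers (median 0.33) and 3 of 3 fibroblast markers (median 0.36), above 0 in 3 of 4 white adipocyte markers (median 0.26), and below 0 in 4 of 4 endothelial markers (median -0.26). Their summed levels were 27.5 to 76.8 in exercised and 27.2 to 50.8 in sedentary muscle for erythrocytes, and 207 to 295 against 148 to 245 for fibroblasts. They were 125 to 349 in exercised and 11.4 to 322 in sedentary muscle for white adipocytes, and 8.58 to 12.9 against 9.66 to 14.5 for endothelium. The part of these lists in the Nfe2l2 difference was not tested. With an array's tendon score as a covariate the Nfe2l2 difference was 0.74 (adjusted p = 0.0317 in limma). With the brown adipocyte score, which includes the Ucp1 values at background, as the covariate it was 0.50, and the adjusted p of 0.176 did not pass. With that score computed without Ucp1, from Cidea and Cox7a1, it was 0.54, with an adjusted p of 0.116.

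Keap1, whose product represses NRF2, did not pass. Its levels were 4.11, 4.23 and 4.48 (lowest, median, highest) in exercised mice, against 4.05, 4.23 and 4.37 in sedentary mice. The medians coincided and the ranges overlapped, with 2 of 6 exercised mice above every sedentary mouse, both on slide 3. The difference was 0.04 (-0.13 to 0.22), an interval from -8.77% to 16.1%, with an adjusted p of 0.861 in limma. Within slides 1, 2 and 3 it was -0.07, -0.05 and 0.26, and without the exercised mouse 1 of set 1 it turned to -0.0017.

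Glutathione synthesis is represented by both subunits of glutamate-cysteine ligase, the rate-limiting enzyme, and neither passed. The catalytic subunit gene Gclc had levels of -0.19, -0.11 and 0.19 (lowest, median, highest) in exercised mice and of -0.12, 0.21 and 0.27 in sedentary mice. No exercised mouse lay above the sedentary median, and 2 lay below every sedentary mouse. The difference was -0.16 (-0.37 to 0.05; adjusted p = 0.481 in limma), and it was below 0 on each slide, at -0.13, -0.23 and -0.33. The modifier subunit gene Gclm, whose promoter letters are printed above, had levels of -2.21, -2.07 and -1.86 in exercised and of -2.27, -1.96 and -1.90 in sedentary mice. Its groups covered nearly the same range, with a difference of -0.04 (-0.22 to 0.14; adjusted p = 0.879). The dimmer Gclm probe A_52_P669425 differed by -0.10 (-0.34 to 0.14).

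Srxn1 and Txnrd1 belong to the thioredoxin arm, in which thioredoxin reductase 1 keeps thioredoxin reduced and sulfiredoxin revives overoxidised peroxiredoxins. Srxn1 levels by its brightest probe, A_52_P297032, were 2.39, 2.93 and 3.80 (lowest, median, highest) in exercised mice and 2.20, 2.53 and 2.91 in sedentary mice. Of the exercised mice, 4 of 6 lay above every sedentary mouse, but 1 lay below the sedentary median and 1, mouse 5 of set 1, lay far above the rest. The SD was 0.46 in exercised and 0.26 in sedentary mice. The difference of 0.43 (0.00 to 0.86) had an unadjusted p of 0.0497 and an adjusted p of 0.307 in limma, so Srxn1 did not pass. Without the exercised mouse 5 of set 1 it was 0.27 (adjusted p = 0.443). It was above 0 on each slide, at 0.56, 0.29 and 0.68.

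The other Srxn1 probes, whose annotated positions overlap (chr2:151935232-151935291 and chr2:151935185-151935244), were dimmer and differed by less. A_51_P330125 gave 0.20 (-0.13 to 0.53) and A_52_P593200 gave 0.32 (0.02 to 0.63), with adjusted p of 0.605 and 0.285 in the limma fit over all probes. All 3 probes thus had a difference above 0 on each slide and none passed. With the tendon score as a covariate the difference of the brightest probe was 0.20 (adjusted p = 0.835).

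Txnrd1 levels were 4.00, 4.08 and 4.40 (lowest, median, highest) in exercised and 3.98, 4.06 and 4.14 in sedentary mice. Both mice above the sedentary range were exercised mice of slide 3, the same mice that were highest for Keap1. The difference was 0.07 (-0.09 to 0.23; adjusted p = 0.713 in limma), and it was 0.06, -0.01 and 0.21 on slides 1, 2 and 3.

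Nqo1 and Hmox1, the quinone reductase and heme oxygenase genes often used as readouts of NRF2, did not pass either. Nqo1 had levels of 1.08, 1.48 and 1.65 (lowest, median, highest) in exercised mice, against 1.13, 1.49 and 1.80 in sedentary mice. The groups lay over each other, with a difference of -0.03 (-0.30 to 0.24; adjusted p = 0.942 in limma), an interval from -18.7% to 17.9%. The sign of so small a value was not stable, as leaving out any 1 of 3 mice turned it. Within slides 1, 2 and 3 it was -0.12, -0.16 and 0.13.

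Hmox1 had levels of 1.28, 1.50 and 1.55 in exercised mice, against 1.34, 1.64 and 2.01 in sedentary mice (lowest, median, highest). The exercised mice lay close together, with an SD of 0.10, and none was above the sedentary median, whereas the sedentary mice spread over an SD of 0.29. The difference was -0.19 (-0.45 to 0.06; adjusted p = 0.479 in limma), an interval from -26.9% to 4.53%, and it was below 0 on each slide, at -0.12, -0.23 and -0.29. Macrophages are rich in Hmox1. Of 7 macrophage markers (Adgre1, Cd68, Cd163, Mrc1, Csf1r, Marco and Cd14) 3 were above 0 and none passed, with a median of -0.03. Their summed level was 6.87 to 9.77 in exercised and 5.20 to 10.3 in sedentary muscle. The array score of a list is its mean deviation from the 12-array means. In the 2 sedentary mice with the highest Hmox1 levels the macrophage score was 0.44 and 0.32, the highest of all 12 mice. The endothelial score was also highest in these 2 mice, at 0.31 and 0.22. The next highest macrophage score, 0.29 in the exercised mouse 4 of set 2, went with an Hmox1 level of 1.53. The lowest, -0.53 in the sedentary mouse 4 of set 2, went with 1.61. The part of either list in the spread of Hmox1 was not tested.

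Sod2 and Cat remove superoxide in mitochondria and hydrogen peroxide in peroxisomes. Sod2 had levels of 7.22, 7.35 and 7.44 (lowest, median, highest) in exercised mice, against 7.10, 7.23 and 7.37 in sedentary mice. In 3 of 6 exercised mice the level was above that of every sedentary mouse, and the SD was 0.08 in exercised and 0.10 in sedentary mice. The difference was 0.11 (-0.03 to 0.26; adjusted p = 0.445 in limma), an interval from -1.97% to 19.4%, and it was 0.10, 0.11 and 0.13 on slides 1, 2 and 3. Cat had levels of 2.29, 2.41 and 2.82 in exercised mice and of 2.17, 2.58 and 2.84 in sedentary mice. The exercised range lay inside the sedentary range, with a difference of -0.08 (-0.35 to 0.18; adjusted p = 0.803) and values of 0.22, -0.11 and -0.10 on the 3 slides.

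**Figure D3:**
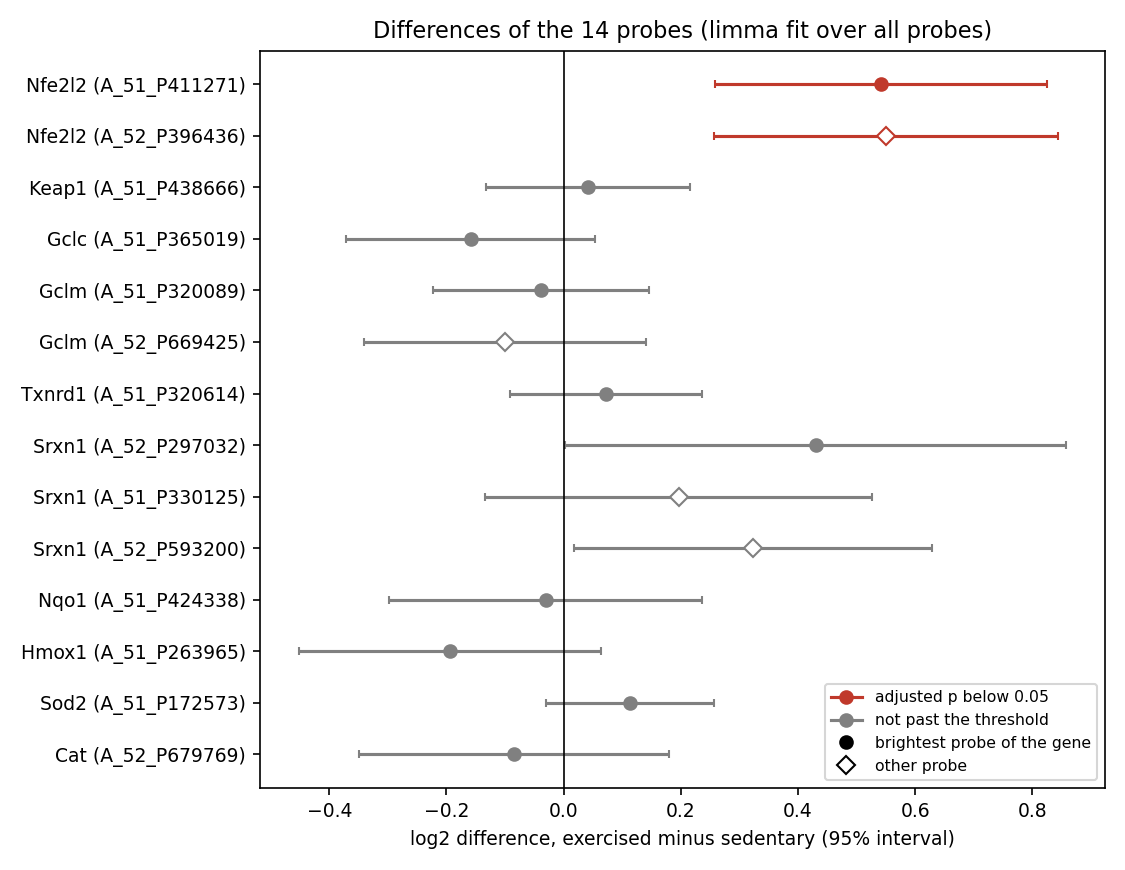
Log2 difference, exercised minus sedentary, of all 14 probes with 95% intervals from the limma fit over all probes (n = 6 each). Filled circles are the brightest probe of a gene, open diamonds its other probes, and red marks an adjusted p below 0.05. Both Nfe2l2 probes lie at 0.54 and 0.55, and the interval of each other gene's brightest probe reaches 0 or comes within 0.01 of it.

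The intervals bound what the 9 genes that did not pass can hide. Srxn1 apart, no interval reached above 19.4% or below -26.9%, so the Nfe2l2 estimate of 45.6% lies outside the intervals of these 8 genes. The interval of Nfe2l2 itself began at 19.6%. Each interval is for its gene alone and comes from the fit without slide as a block. Within the slides, 3 genes (Nfe2l2, Srxn1 and Sod2) were above 0 on all 3 slides and 2 (Gclc and Hmox1) below 0 on all 3. For Nfe2l2 the difference on slide 1 was only 0.03. The share of all genes with the same sign on all 3 slides was not computed, so these counts cannot be read as consistency across slides. No gene's difference between groups differed between title sets 1 and 2 past the threshold: the adjusted p of the interaction ran from 0.574 for Hmox1 to 0.963 for Nqo1, and across the array 0 genes passed it in limma, with an unadjusted p below 0.05 in 8.74% of them. For Nfe2l2 the difference was 0.57 in set 1 (2 exercised and 3 sedentary mice) and 0.50 in set 2 (4 and 3). For Hmox1 it was -0.36 in set 1 and 0.00 in set 2, a gap of 0.37 (-0.02 to 0.75).

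Other genes of the pathway were taken from 8 lists with 114 genes, of which 107 were measured, with Aox1 in 2 of the lists. In exercised muscle 2 rose, 1 fell and 104 did not pass, so that 2.8% passed beside 3.63% of all genes and unnamed probes, with a median difference of -0.01 beside -0.03 over all genes. Both rises were in the list of 13 NRF2 partners and regulators and were small MAF genes, whose products pair with NRF2 or with its competitor BACH1 on DNA. Maff had levels of 0.80, 1.22 and 2.14 (lowest, median, highest) in exercised mice, against -1.26, -0.79 and -0.33 in sedentary mice. Its groups did not overlap, as was so for 1.39% of all genes in this direction, and it was 2.13 and 2.42 higher on slides 2 and 3 and 1.48 higher on slide 1. The difference was 2.10 (1.64 to 2.57; adjusted p = 0.000227 in limma), and Maff passed with slide as a block (adjusted p = 0.00260).

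Mafk had levels of 0.37, 0.96 and 1.03 in exercised mice, against -0.01, 0.22 and 0.41 in sedentary mice, and 5 of 6 exercised mice lay above every sedentary mouse. It rose by 0.57 (0.30 to 0.85; adjusted p = 0.0267 in limma) but did not pass with slide as a block (0.59, adjusted p = 0.0750), with median scaling (0.57, 0.0650) or with the brown adipocyte (0.55, 0.124) or tendon score (0.59, 0.135) as a covariate, where the difference was about as large. The call held in 4 of the 12 fits that left out a mouse, with adjusted p from 0.00751 to 0.0620. The third small MAF gene, Mafg, was also in the list. Its value, looked up after the others were seen, was 0.07 (-0.11 to 0.25).

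Gstt2, a glutathione transferase of the theta class, was the gene that fell, and the only one of 22 measured glutathione peroxidases and transferases to pass. Its levels were -1.29, -0.65 and -0.51 (lowest, median, highest) in exercised mice, against -0.32, -0.06 and 0.25 in sedentary mice. The groups did not overlap, as was so for 1.61% of all genes in this direction. The difference was -0.72 (-1.04 to -0.40; adjusted p = 0.0186 in limma), and it was -0.50, -0.47 and -0.90 on slides 1, 2 and 3. It did not pass with slide as a block (adjusted p = 0.0870) or with the tendon score as a covariate (-0.53, adjusted p = 0.217).

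None of the other 6 lists had a gene that passed, and the genes with the smallest p in each had these values. Among 19 genes of the thioredoxin and peroxiredoxin system, Txnip, whose product inhibits thioredoxin, differed by -0.56 (-0.91 to -0.21; adjusted p = 0.0792 in limma), and it passed without the sedentary mouse 5 of set 2 (-0.69, adjusted p = 0.0118). Sesn1, a sestrin gene, differed by 0.55 (0.19 to 0.90, adjusted p = 0.0912 in limma) by its brightest probe. It passed with the title set as a block and without the sedentary mouse 6 of set 1 (0.0419 and 0.0427). The dimmer Sesn1 probes A_52_P53596 and A_51_P266644 gave 0.69 (0.31 to 1.08) and 0.69 (0.31 to 1.07). Their adjusted p in the limma fit over all probes was 0.0526 and 0.0517, so neither passed. Among 11 genes of glutathione synthesis, recycling and transport, Pgd, a pentose phosphate enzyme that makes NADPH, differed by 0.47 (0.15 to 0.80; adjusted p = 0.116), and it passed with array weights and without the sedentary mouse 1 of set 1 (0.0475 and 0.0419). With the brown adipocyte score as covariate Pgd was 0.21 (adjusted p = 0.520). Abcc1, a glutathione conjugate exporter, differed by -0.13 (-0.27 to 0.01).

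Of the superoxide dismutases and their copper chaperone, the cytosolic enzyme gene Sod1 differed by -0.09 (-0.27 to 0.09) by its brightest probe, while its dimmer probe gave 0.43 (0.08 to 0.78), and neither passed. The extracellular enzyme gene Sod3 differed by 0.50 (-0.66 to 1.66), a value that rests on the exercised mouse 4 of set 2 and was -0.06 without it. In the heme and iron list of 10 genes the transferrin gene Trf differed by 0.43 (-0.09 to 0.96) and the transferrin receptor gene Tfrc by 0.21 (-0.05 to 0.47). Trf was -0.13 with the brown adipocyte score and Tfrc 0.039 with the tendon score as covariate. Among 18 other NRF2 target enzymes, Ugdh, which makes the sugar for glucuronidation, differed by 0.31 (0.05 to 0.56) and Tkt, a transketolase gene, by 0.91 (-0.01 to 1.82). Once the brown adipocyte score entered as a covariate, Ugdh was 0.080 and Tkt -0.031. Among 12 superoxide- and peroxide-producing oxidases, Duox1 differed by -0.23 (-0.45 to 0.00). Xdh, the xanthine dehydrogenase gene, differed by 0.25 (0.00 to 0.49) by its brightest probe, or 0.16 without the exercised mouse 4 of set 2. Its dimmer probe A_52_P249965 gave 0.37 (0.13 to 0.60), with an adjusted p of 0.0917 in the limma fit over all probes. Groups did not overlap for that probe, at -1.51 to -0.81 in exercised and -1.65 to -1.54 in sedentary mice. Of all genes, 1.39% had no overlap in this direction.

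**Figure D4:**
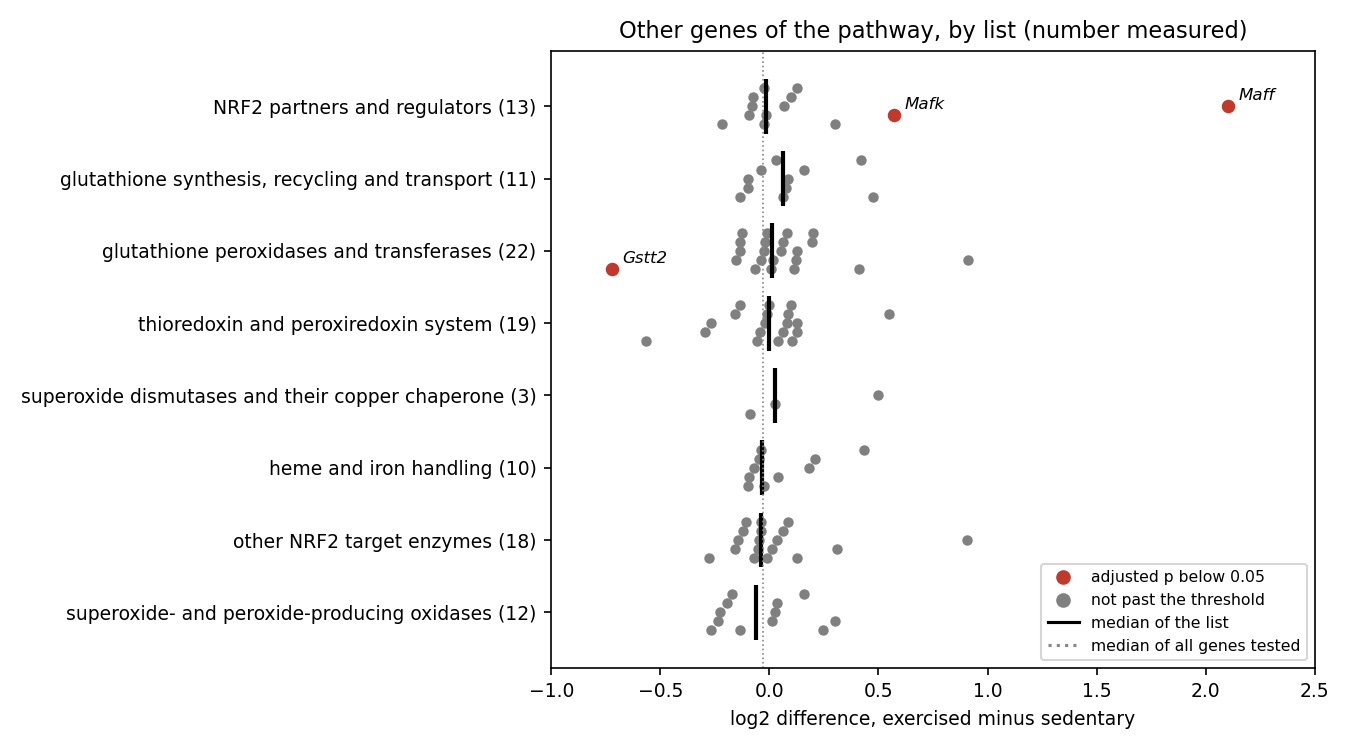
Log2 difference, exercised minus sedentary, of the 107 measured genes of the 8 pathway lists, 1 point per gene in each list (Aox1 is in 2), with list medians as black lines and the median of all genes tested (-0.03) as a dotted line. Points in red passed an adjusted p below 0.05, and these are Maff (2.10), Mafk (0.57) and Gstt2 (-0.72).

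The genes whose profile over the 12 mice was closest to that of Nfe2l2 were sought among 13040 genes with a symbol, by the root mean square distance between log2 levels centred on their 12-array mean. They were 4930523C07Rik (0.179), Ercc5 (0.182), the deubiquitinase gene Usp2 (0.189), the clathrin adaptor gene Picalm (0.196) and Tfdp2 (0.197), against a root mean square of 0.347 for the Nfe2l2 profile itself. Since Nfe2l2 differs between the groups, closeness to it includes that difference. Of these 5 genes, 3 passed in limma: 4930523C07Rik at 0.72 (adjusted p = 0.000646), Ercc5, a DNA repair nuclease gene, at 0.69 (0.000382) and Picalm at 0.42 (0.00569). Usp2 (0.42, adjusted p = 0.0510) and Tfdp2 (0.37, 0.0895) did not pass. Usp2 passed in 5 of the 30 alternatives, among them without the sedentary mouse 5 of set 2 (adjusted p = 0.0429) and with normexp background correction limited to 100 units (0.0103), and Tfdp2 passed with the tendon score as covariate (0.55, 0.0489). None of the other 9 antioxidant genes was among the 5, and the distance from Nfe2l2 to Sod2 was 0.313 and to Srxn1 0.454.

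**Figure D5:**
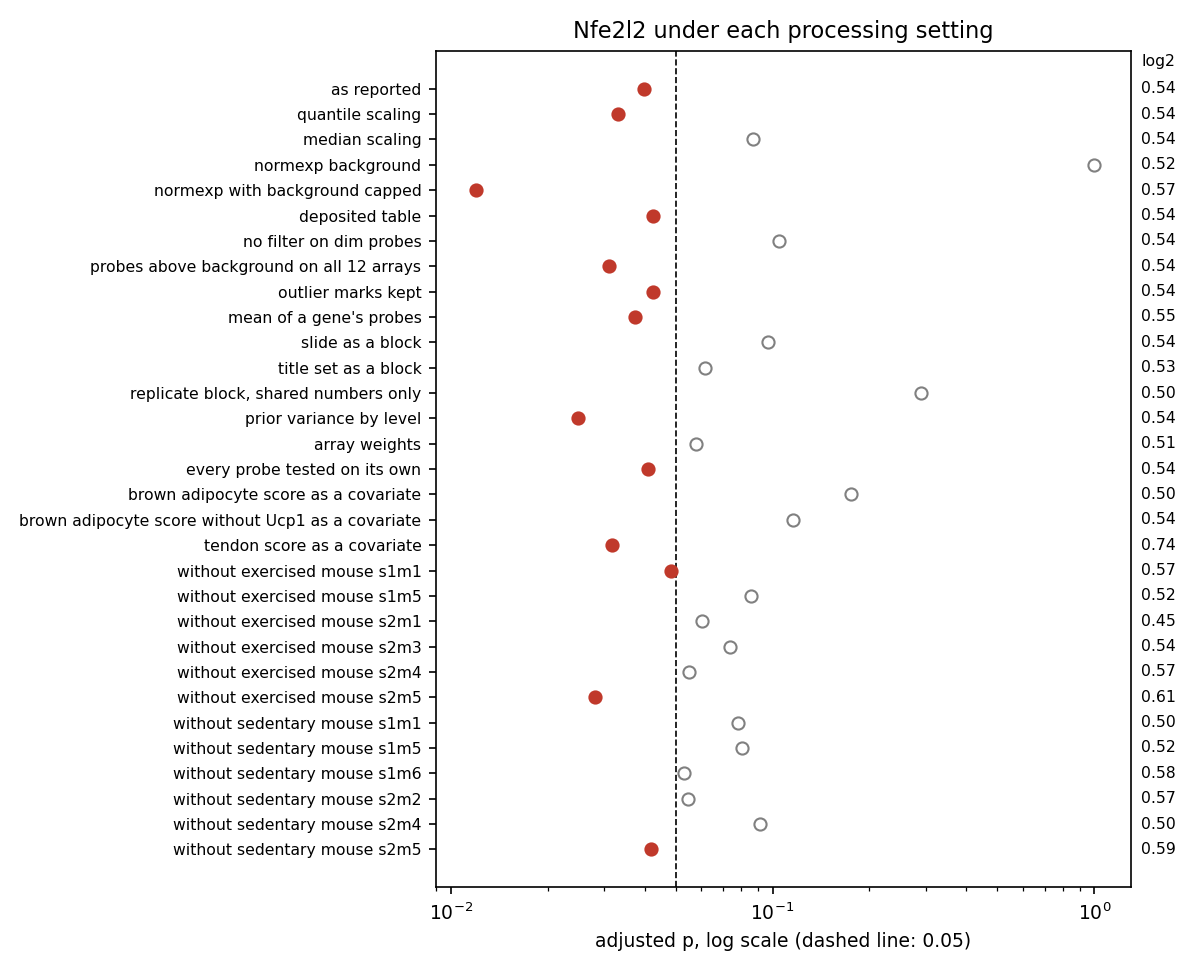
Adjusted p of Nfe2l2 (log scale, dashed line at 0.05) as reported and under 30 other settings, with the log2 difference, exercised minus sedentary, at the right. Filled points passed, and s2m1 in a label stands for mouse 1 of title set 2. The difference stayed between 0.45 and 0.74 while the adjusted p lay on either side of 0.05, passing in 12 of the 30.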

How the data were processed

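The authors deposited 12 scanner files of spot intensity (linear), made with Agilent Feature Extraction. The version is 10.5.1.1 per the file headers and 9.1 per the submitters' processing notes, and the headers are followed here. The deposited processed signal was already background-subtracted and not scaled between arrays, and a deposited matrix of values repeats it to within 0.1% for 100% of the values of single-spot probes. Probe positions are those of the array annotation (mm9).

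Control spots and spots with outlier marks were left out, and replicate spots were averaged. From log2 of the signal the 75th percentile of its array was subtracted. Probes well above background on at least 6 of 12 arrays were kept (22919 of 41174), and the brightest probe stood for a gene. Groups were compared with limma 3.58.1 in R 4.3.3 (reading files with the data.table package, version 1.17.8), without a block, and p values were adjusted by Benjamini-Hochberg over 16551 features (13112 genes with a symbol, the rest probes without one). Intervals are 95% and come from limma. Differences of all probes come from a fit over all probes. Arrays give no counts, and the number of mice limits the precision. On simulated data over 16458 genes, the comparison of exercised with sedentary arrays called 42 of 67 genes shifted by 0.5, 60 of 67 shifted by 1 and 64 of 66 shifted by 2, with 10 false calls.

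The 10 genes, the pathway and marker lists and the tests were chosen with earlier results of these data known. Named are all 10 genes with all probes, every gene of a pathway list that passed or else the 2 with the smallest p, and the 5 genes closest in profile to Nfe2l2. Alternatives were other scalings (quantile, median), normexp background correction (offset 50), the deposited matrix, other probe filters and probe rules, kept outlier marks, slide, title set or replicate number as a block, other variance models, array weights and each mouse left out. Added after seeing the data were normexp with the background limited to 100 and marker scores as covariates, 1 of them without Ucp1. Columns left unused numbered 0.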

Additional observations from a re-analysis of the deposited data

Results flagged for a closer look

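Among the named genes and their probes, 94 groups of 6 mice were examined for a mouse whose gap to its nearest neighbour took more than 0.625 of the group's range, and 2 stood out. By chance about 1 in 20 such groups would. Both were the exercised mouse 4 of set 2. For Sod3 its level was -0.58 while the next exercised mouse was at -3.58, with a gap of 0.851 of the range. For Xdh its level was 1.07 and the next was at 0.65, with a gap of 0.63 of the range. None of the 14 probes of the 10 antioxidant genes had such a mouse.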

How the results depend on the processing

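Nfe2l2 kept a difference above 0 under all 30 alternatives (0.45 to 0.74), but passed in 12 of them. Its adjusted p in limma was 0.0331 with quantile scaling, 0.0426 from the deposited matrix and 0.0310 with probes above background on all 12 arrays, against 0.0872 with median scaling, 0.105 with no filter, 0.0617 with the title set as a block and 0.0577 with array weights. The count of the 10 genes that passed, 1 as reported, was therefore 0 with median scaling, normexp, no filter, slide, title set or replicate number as a block, array weights and the brown adipocyte score with or without Ucp1, and 0 to 1 with each mouse left out. The other 9 genes passed under none of the 30 alternatives.

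Over all genes 601 passed as reported. Leaving out 1 mouse gave 418 to 570, no filter 316, slide as a block 344, the brown adipocyte score as covariate 316, the tendon score 288 and normexp 0, where 114 genes had an unadjusted p below 0.05 in limma. In the normexp case single spots had a local background of up to 263984 units while array medians were 19 to 23. With the background limited to 100 units, an alternative chosen after seeing the data like the marker scores, 476 genes passed and Nfe2l2 stood at 0.57 (adjusted p = 0.0120). Of the pathway lists 3 genes passed as reported, against 1 with no filter, slide as a block or the tendon score, and 0 with normexp or the replicate block. The interaction with title set called 0 genes as reported and 0 to 15 with a mouse left out. The highest count came without the exercised mouse 5 of set 1, when set 1 holds a single exercised mouse assumed to vary like the rest, and 2 genes were called without the exercised mouse 1 of set 1. The interaction was not run with the title set or replicate number as a block.

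Replicate numbers could be paired for 8 mice. Deviations of same-numbered mice correlated at -0.19 to 0.28 and 1 of 4 numbers correlated best with itself, so they were taken to share only a number. With the replicate block 29 genes passed and Nfe2l2 was 0.50 (adjusted p = 0.290), while the same 8 mice without the block gave 130 genes and 0.50 (adjusted p = 0.159).

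Sod1 turned with the mean of its probes (0.17), where its dimmer probe lay above 0 and its brightest below. Other signs turned for values near 0, for Sod3, whose value rests on 1 mouse, and for Tkt and Trf with a score as covariate. As reported, Tkt was 0.91 and Trf 0.43. Cat turned with the replicate block (0.010) and Gclm with the brown adipocyte score (0.0076, and 0.020 without Ucp1). Nqo1 turned with normexp (0.0034), with the score without Ucp1 (0.0022), with the tendon score (0.064) and with mice left out (-0.10 to 0.040). Keap1 turned with mice left out (-0.0017 to 0.072) and Sod1 with normexp (0.0037). Sod3 turned with normexp (-0.086) and with mice left out (-0.056 to 0.65). Tkt (-0.031) and Trf (-0.13, and -0.067 without Ucp1) turned with the brown adipocyte score. The cause of these shifts was not tested. Over 30 named genes, 823 of 899 values kept their sign and side of the threshold, 48 lost a call, 11 gained one and 17 turned sign. Values with the same sign moved by over 1.5 times in 11 genes with the brown adipocyte score, 10 without Ucp1 in it, 11 with the tendon score, 13 with normexp, and 0 to 7 under each of the others. With 6 mice in a group, small differences in these genes could not be resolved. All 14 probes were well above background, but the Gclm probes were dim. Their background-subtracted signals were 39.5 to 61.2 and 22.5 to 43.4 units, beside array background medians of 19 to 23. The effect of this low signal on the Gclm difference was not tested.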
